A study of Equus caballus with 3 samples.

Results

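The cells described here are mesenchymal stromal cells (MSCs) of the horse that carried many transcripts of mitosis when they were captured. A cell was a member if at least 5 of its unique molecular identifiers (UMIs, each standing for 1 captured transcript) came from TOP2A, UBE2C, CCNB1 and CDC20 combined. The selection also named MKI67, but the matrices used here hold no row under that symbol, so 4 of the 5 genes chose the cells. Of 16301 kept cells, 1329 were members, with 334 of 5403 from adipose tissue (AT), 687 of 5580 from bone marrow (BM) and 308 of 5318 from peripheral blood (PB).

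The study isolated MSCs from AT, BM and PB of 1 healthy Warmblood mare aged 10 years and profiled each source by droplet single-cell RNA sequencing after 2 passages in culture. All 3 cultures therefore share donor, age and sex, no agent or genetic change was applied, and each source is represented by 1 library. The sources follow the sample titles, since the tissue field of all 3 samples names blood mononuclear cells. With 1 library per source the sources cannot be tested against each other, and members were not tested against other cells because the rule chose both groups by transcripts of these same cells. Intervals cover counting error only, a gene is called past 2-fold only by size, and differences between sources cannot be told apart from differences between libraries.

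A dividing cell copies its DNA in S phase, prepares in G2 and separates its chromosomes in M phase. Cyclin A and then cyclin B switch on the kinase CDK1, chromosomes condense, kinetochores attach them to spindle microtubules, and the anaphase-promoting complex (APC/C), activated by CDC20 and served by the ubiquitin-conjugating enzymes UBE2C and UBE2S, ends the process by destroying cyclin B and securin. MSCs are valued in culture both for their capacity to expand and for the matrix and signaling molecules they make.

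Members were compared with reference cells of the same library, defined as kept cells with no UMI of the 4 genes and none of PCNA and MCM5, which serve DNA replication. The reference numbered 2735 cells in AT, 2334 in BM and 2816 in PB. Members held more UMIs, with medians of 9014, 9690 and 10640 for the 3 sources against 6815, 6090.5 and 7296.5 in the reference. The ratio of the medians was 1.32, 1.59 and 1.46. All kept cells had medians of 7291, 6874.5 and 7750 UMIs. Choosing the reference for lacking UMIs favors cells with few of them, and the part of the selection in the gap was not tested. Such a gap raises the chance of reaching 5 UMIs, and the share of members is given with and without it: 6.18% of kept AT cells (95% Clopper-Pearson interval 5.55 to 6.86), 12.3% of BM cells (11.5 to 13.2) and 5.79% of PB cells (5.18 to 6.45) met the rule. After every cell was thinned to 2500 UMIs, 2.46% (2.07 to 2.91), 4.19% (3.68 to 4.75) and 1.69% (1.36 to 2.08) still had 5. With a minimum of 2 UMIs in the thinned cells the shares were 7.07% (6.40 to 7.79), 12.3% (11.4 to 13.2) and 5.27% (4.68 to 5.90). BM had the highest share in each form. The counting intervals of AT and PB overlapped at a minimum of 5 UMIs, narrowly so after thinning, and did not overlap at a minimum of 2. With 1 library per source these intervals do not test a difference between the cultures.

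The median mitochondrial share of members was 1.59%, 1.96% and 1.6% in AT, BM and PB, beside 1.39%, 1.96% and 1.55% in the reference. The median doublet score from Scrublet was lower in members than in reference cells in each source, at 0.0485, 0.0332 and 0.0513 against 0.0982, 0.0848 and 0.100. A barcode sequence that is also a kept cell of another library occurred for 2, 11 and 3 members. In AT, BM and PB, 59, 113 and 37 kept cells had 4 UMIs of the rule genes, just outside the limit, while 30, 75 and 34 had 5. The median member carried 11 such UMIs in each source.

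The 4 genes that made the selection are given as a description only. UBE2C supplied the most UMIs (AT 2465, BM 5103, PB 2448) and was detected in 93.1%, 98.5% and 98.1% of members. TOP2A, which untangles DNA, gave 995, 1390 and 659 UMIs, the mitotic cyclin CCNB1 798, 1928 and 777, and the APC/C activator CDC20 829, 1585 and 667. All 4 genes were seen together in 41.6%, 36.7% and 29.9% of the members, whereas 7, 10 and 6 members owed their place to a single gene. When each cell's UMIs were split at random into 2 parts and cells were chosen on the first part by 3 or more UMIs of these genes, the second part held 319 CPM (counts of a gene scaled to a total of 1e+06 UMIs) of TOP2A in AT, 200 CPM in BM and 207 CPM in PB. The cells with no rule or replication UMI in the first part held 3.21, 3.37 and 3.23 CPM. Both parts come from the same cells and TOP2A is a rule gene, so this too describes the selection and supports nothing further.

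The label of the cells as G2/M was checked against other genes. Members with a UMI of PCNA or MCM5 made up 73.4%, 92.0% and 84.4% of AT, BM and PB, so the rule gathered cells that still carried transcripts of replication. In kept cells without any rule UMI the same share was 30.8%, 35.9% and 33.6%. The members are accordingly called mitotic-gene-positive cells here, and their place between late S phase and mitosis is described gene by gene. As MSCs they carried CD44 in 97.3%, 82.7% and 96.4% of cells, and ITGB1 (CD29) in 83.2%, 91.7% and 87.7%. THY1 (CD90) was seen in 96.4%, 92.1% and 56.2%. Of the 6 surface antigens listed, 5 reached a mean of 10 CPM over members and reference in each source. The other had no UMI in AT members. The leukocyte gene PTPRC (CD45) had 0 UMIs in members and reference of every source, which for the 308 PB members allows up to 0.950 CPM. The 9 leukocyte markers with a row summed to 6.30, 12.1 and 6.97 CPM in members against 7.44, 11.9 and 4.24 CPM in the reference, most of it from CD68, and CD3E also had 0 UMIs. The 7 endothelial markers summed to 5.64, 2.91 and 7.60 CPM against 4.8, 0.961 and 2.27 CPM, nearly all from ERG, with KDR at 0 UMIs; the part of these markers in the results was not tested.

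Across genes that reached 10 CPM as the mean of both groups, 440 of 6408 (6.87%) were at least 2-fold higher in members in AT, 679 of 6979 (9.73%) in BM and 560 of 6553 (8.55%) in PB. Genes at least 2-fold lower were fewer, with 60 (0.936%), 299 (4.28%) and 118 (1.8%). Differences are of log2(CPM + 1), which understates the change of low genes. CPM is a share of a group's UMIs, and members held more UMIs per cell. A lower CPM therefore need not mean fewer transcripts per cell. Of the 5954 genes tested in all 3 sources, 314 (5.27%) were 2-fold higher in each and 16 (0.269%) were 2-fold lower in each. The median of all tested genes was 0.15, 0.14 and 0.16, and a trimmed-mean (TMM) scaling in place of total UMIs moves the median of AT, BM and PB down by 0.17, 0.13 and 0.20. Under that scaling the calls became 341 higher and 101 lower in AT, 544 and 440 in BM, and 415 and 251 in PB, so the share of calls that were higher went from 88.0% to 77.1%, from 69.4% to 55.3% and from 82.6% to 62.3%.

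The kinases and cyclins that drive mitosis were higher in every source. Of the 19 genes listed, 18 were tested in AT, 19 in BM and 19 in PB, and each tested gene was past 2-fold, with median log2 differences of 4.51, 4.61 and 4.22. The list was drawn up for what mitotic cells are known to express, so its direction is a check of the selection. Genes of this and the following lists that were near 0 in the reference could reach 10 CPM only through the members, so counts over tested genes are a description and support nothing. CCNA2, cyclin A2, reached 210 CPM in AT (95% Poisson interval 194 to 227), 250 CPM in BM (238 to 262) and 177 CPM in PB (163 to 193). Its reference level was 0.808, 2.40 and 0.691 CPM. CDK1, its kinase partner, stood at 197, 210 and 128 CPM in members and 2.86, 3.29 and 1.09 CPM in reference cells. PLK1, the kinase that readies centrosomes and chromosomes for division, was at 89.9, 72.8 and 61.4 CPM against 0.808, 1.17 and 0.839 CPM. The smallest difference of the list in AT, BM and PB was that of CDC25B, a phosphatase that activates CDK1, at 1.46, 2.22 and 1.67. WEE1, the kinase that holds CDK1 back, was also higher, by 2.23, 2.37 and 2.67.

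Kinetochore and checkpoint genes included the gene that was highest by its least extreme source. CENPF, a large kinetochore protein encoded on chromosome 5, was found at 461 CPM in AT (437 to 486), 271 CPM in BM (259 to 284) and 262 CPM in PB (244 to 280). Its reference cells held 2.37, 0.755 and 1.09 CPM, which gives log2 differences of 7.10, 7.28 and 6.98. All 20 tested genes of this list in AT and all 21 in BM were past 2-fold, as were 19 of 20 in PB. The exception was BUB3, a checkpoint protein, at 0.93 in PB beside 1.63 in AT and 1.24 in BM. CENPA, the centromere's histone, was at 205, 207 and 227 CPM in members and 3.56, 3.43 and 2.81 CPM in the reference.

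The list of spindle and cytokinesis genes gave 31 of 31, 28 of 28 and 29 of 29 tested genes past 2-fold. NUSAP1, which bundles spindle microtubules, differed by 6.44, 5.88 and 6.32, and the chromosomal passenger protein CDCA8 by 6.44, 5.60 and 5.93. TPX2, an activator of Aurora A kinase, differed by 5.56, 5.70 and 6.56. The lowest differences of this list were those of CKAP5, a microtubule polymerase, at 2.07, 1.68 and 2.12. Among the 15 genes highest in all sources, 12 were in the lists of kinase, kinetochore and spindle genes, PRR11 was in no list, and 2 carry only Ensembl identifiers, ENSECAG00000036105 and ENSECAG00000026891, both on chromosome 1.

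**Figure D1:**
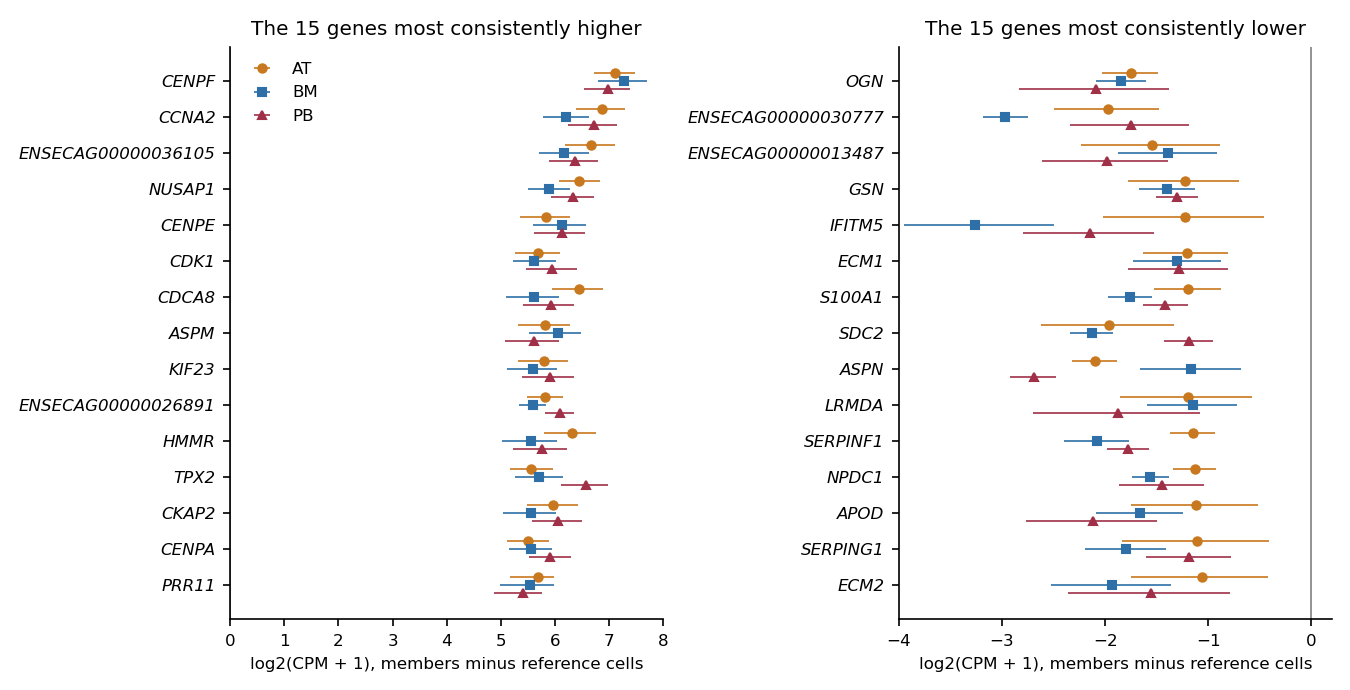
Difference of log2(CPM + 1) between members and reference cells for the 15 genes most consistently higher (left) and the 15 most consistently lower (right) over the 3 sources, ranked by the source with the least extreme value. Points are AT (circles), BM (squares) and PB (triangles), bars span the difference of the 95% Poisson bounds, and CENPF lies near 7 in each source whereas the lower genes lie between -1.06 and -3.26.

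Not every part of the mitotic machinery followed. Of the APC/C genes and their partners, 5 of 14 in AT, 4 of 14 in BM and 5 of 13 in PB were past 2-fold, with medians of 0.58, 0.65 and 0.71, and none was 2-fold lower. TMM scaling gave 4, 4 and 3 past 2-fold. FBXO5, the inhibitor that restrains APC/C before mitosis, led with 4.68, 4.96 and 3.95. UBE2S, which extends ubiquitin chains for APC/C, followed with 3.44, 3.47 and 3.69. Core subunits moved less, with CDC16 at 1.17, 1.57 and 1.07, CDC27 at 1.0, 0.82 and 0.71, and CDC26 at 0.41, 0.33 and 0.38. ESPL1, separase, differed by -0.31, -0.46 and -0.45, so the transcript of the protease that cuts cohesin was not higher.

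Among tubulins and stathmin, STMN1, a microtubule destabilizer, was at 1216 CPM in AT members, 1664 CPM in BM and 1107 CPM in PB, against 68.5, 197 and 83.7 CPM in the reference. TUBA1A, an alpha-tubulin, differed by 2.09, 1.66 and 2.33. The beta-tubulin TUBB2B was lower in BM at -1.10 and in PB at -0.78, and fell under the filter in AT. Chromatin and condensin genes were past 2-fold in 19 of 24, 19 of 24 and 16 of 22 cases, with none 2-fold lower. The histone variant H2AFZ differed by 2.71, 3.02 and 2.41, the chromatin protein HMGB2 by 3.60, 3.95 and 2.68, and the condensin subunit NCAPG by 4.12, 4.07 and 4.09. TMPO, a protein of the nuclear lamina, and H2AFJ, a histone variant, were below 0 in each source, with TMPO at -0.29, -0.42 and -0.66.

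Many replication genes were also higher in the members. The list holds 48 genes without PCNA and MCM5, which defined the reference, and 45 had a row. Of these, 27 in AT, 33 in BM and 31 in PB reached the filter, some of them only through the members. Past 2-fold were 26 of 27 tested genes in AT, 33 of 33 in BM and 30 of 31 in PB, with medians of 2.74, 2.94 and 2.94. The reference was chosen for lacking PCNA and MCM5, so the direction of this list is not independent of the choice of cells. The highest of the list was ASF1B, a histone chaperone, at 4.78, 5.33 and 5.10. CLSPN, which relays replication stress, was at 32.2 CPM in AT members, 53.2 CPM in BM and 31.4 CPM in PB, against 0.216, 0.961 and 0.395 CPM. RRM2, the inducible subunit of ribonucleotide reductase, was at 81.9, 131 and 111 CPM against 3.29, 5.77 and 3.85 CPM. In the members without a PCNA or MCM5 UMI, an alternative added after the data were seen, 22 of 27, 27 of 33 and 26 of 31 of these genes were still past 2-fold, with medians of 2.05, 2.15 and 2.25. The direction turned for UNG in PB, at -2.90 with 0 UMIs in those members, and for CHAF1B in BM, at -0.31 with 1 UMI.

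Another set of cells had no rule UMI but at least 2 UMIs summed over PCNA and MCM5. It numbered 284 in AT, 406 in BM and 390 in PB. A cell with a low level of these genes can also reach 2 UMIs by sampling, so the set is not an isolated S phase. How many of its cells were in S phase was not tested. Against the same reference, the replication list had medians of 1.41, 1.52 and 0.69 in these cells, lower than in the members of each source. CLSPN differed by 3.25, 3.23 and 1.59 and RRM2 by 2.45, 1.59 and 1.13. Mitotic kinases and cyclins had medians of 0.75, 0.91 and 0.33 there, and spindle genes 0.37, 0.95 and 0.38. Over the 5954 genes tested in all sources, 67 (1.13%), 104 (1.75%) and 25 (0.42%) were 2-fold higher in the PCNA and MCM5 cells of AT, BM and PB and 5 (0.084%), 3 (0.0504%) and 0 (0%) were 2-fold lower. Both comparisons share their reference cells.

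All kept cells were also binned by their rule UMIs. CCNA2 climbed over the bins from 1.0 CPM in AT cells with no rule UMI to 38.1 CPM with 3 to 4 and 268 CPM with 20 or more, and from 2.39 to 63.3 and 392 CPM in BM and 0.814 to 66.7 and 275 CPM in PB. Replication genes did not follow 1 course over the bins. MCM3, a subunit of the replicative helicase, was highest in the middle bins. It was at 42.9 CPM in AT cells with 3 to 4 rule UMIs and 14.4 CPM with 20 or more. In BM the same bins gave 77.7 and 54.3 CPM, and in PB the maximum was 54.1 CPM at 5 to 9 UMIs before 32.3 CPM at 20 or more. RRM2 had its maximum of 85.0 CPM at 5 to 9 UMIs in AT and of 141 CPM at 10 to 19 in BM, with 77.1 and 134 CPM at 20 or more, and its highest level in PB was the 127 CPM at 20 or more. The share of cells with a PCNA or MCM5 UMI was highest at 20 or more in BM (95.8%) and PB (91.1%), whereas in AT it was 83.7% at 10 to 19 and 68.5% at 20 or more. The bins differ in RNA content as well, with medians of 7045, 6366 and 7545 UMIs in cells without rule UMIs and 11373, 11095 and 12599 UMIs in those with 20 or more.

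**Figure D2:**
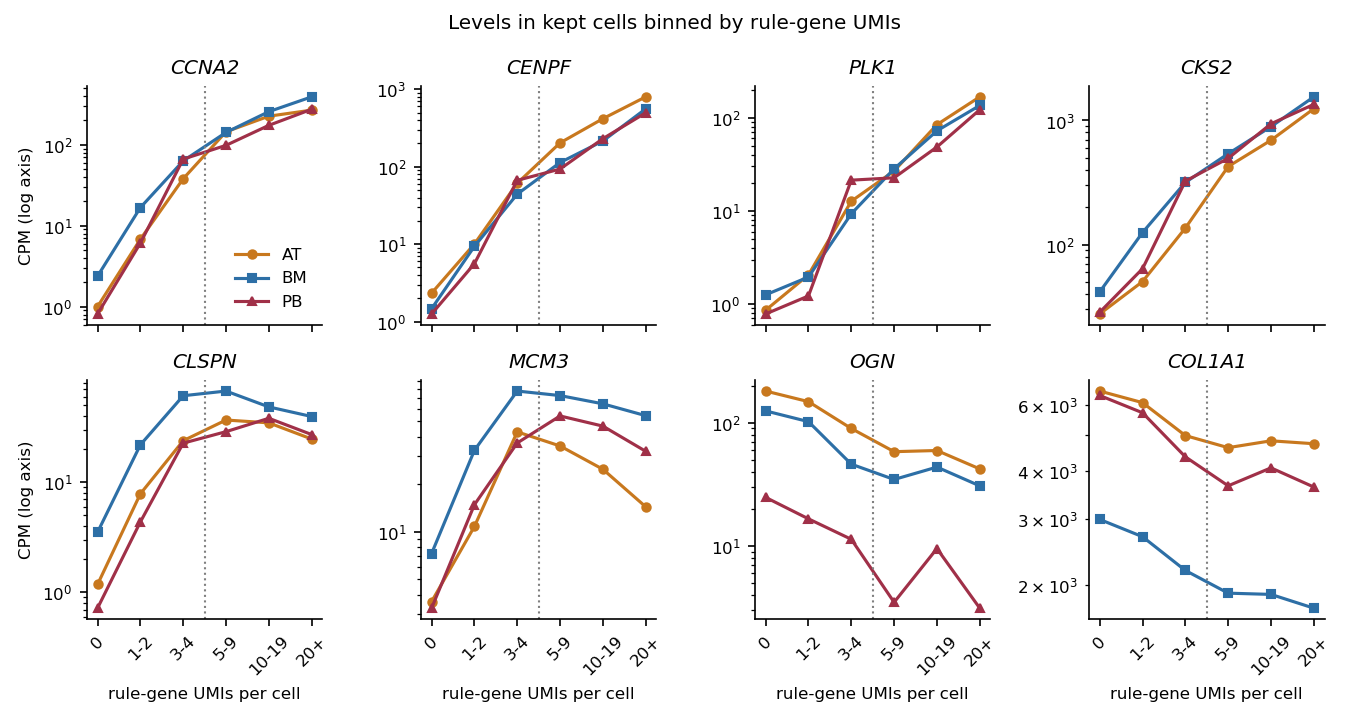
Level in CPM (log axis) of 8 genes in kept cells of AT, BM and PB binned by the number of UMIs of the rule genes in each cell; the dotted line marks the limit of 5 UMIs for members. CCNA2, CENPF, PLK1 and CKS2 were highest in the bin of 20 or more in each source, CLSPN and MCM3 peaked in earlier bins, and OGN and COL1A1 were lower in members than in cells with no rule UMI.

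The 16 genes lower in members of all sources included several secreted and matrix proteins, which is a description and not a tested theme. Of the 16, 11 were in none of the lists and 2 had no symbol. Of the 17 collagen and matrix genes tested in all sources, 0 were 2-fold lower in each. The 15 lowest were OGN, ENSECAG00000030777, ENSECAG00000013487, GSN, IFITM5, ECM1, S100A1, SDC2, ASPN, LRMDA, SERPINF1, NPDC1, APOD, SERPING1 and ECM2. Under 15 other processing settings the ratios of between 9 and 15 of these 15 stayed 2-fold lower in all sources. Those of OGN, SDC2 and NPDC1 did so under each of them. The filter of a setting was not applied to these ratios, and at 50 CPM only 2 genes were called lower in all sources. With a minimum of 3 rule UMIs GSN, APOD and ECM2 were within 2-fold in AT, at -0.84, -0.92 and -0.96. In the members without PCNA or MCM5 UMIs, the alternative added later, 3 of the 15 stayed 2-fold lower in all: ENSECAG00000030777, ASPN and LRMDA. There OGN was at -0.72 in PB, SDC2 at -0.62 in BM and -0.87 in PB, and NPDC1 at -0.74 in AT and -0.62 in BM. OGN, osteoglycin, was at 53.4 CPM in AT members (45.5 to 62.3), 36.5 CPM in BM (32.0 to 41.4) and 5.38 CPM in PB (3.14 to 8.62). The reference held 182, 134 and 26.2 CPM, so the level in members was lower in each source although the sources themselves differ. ASPN, asporin, differed by -2.10 in AT, -1.17 in BM and -2.69 in PB. Both are small leucine-rich proteoglycans that bind collagen, and of the tested genes of that family 3 of 6 in AT, 6 of 7 in BM and 4 of 6 in PB were 2-fold lower, with medians of -1.0, -1.48 and -1.78. OGN, ASPN and ECM2 lie on chromosome 23 of EquCab3.0 in the matrices, as does the related OMD, osteomodulin, which passed the filter in BM and PB only and differed there by -2.82 and -2.59. LUM, lumican, was 2-fold lower in BM at -1.48, and was at -0.85 in PB and at 0.16 in AT, where its sign turned under TMM (-0.01). In the BM members without PCNA or MCM5 UMIs LUM was at -0.92, within 2-fold.

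Other lowered genes have varied roles. GSN, which severs actin filaments, was at 13.6, 32.5 and 95.7 CPM in members against 33.1, 87.2 and 237 CPM. The ratio of GSN came within 2-fold in AT under 5 of the 15 other processing settings. In BM members without PCNA or MCM5 UMIs GSN was at -0.44, within 2-fold. SDC2, a heparan sulfate proteoglycan of the cell surface, was at 7.96, 48.0 and 72.2 CPM against 33.8, 213 and 166 CPM. IFITM5, a bone-lineage membrane protein, rested on few UMIs in members, 17 in AT, 9 in BM and 24 in PB. Its differences were -1.22 (counting bounds -2.02 to -0.46), -3.26 (-3.95 to -2.50) and -2.14 (-2.80 to -1.52).

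COL1A1, a main fibrillar collagen, was at 4720, 1851 and 3796 CPM in members against 6638, 3084 and 6566 CPM, a difference of -0.49, -0.74 and -0.79. These are shares of UMIs, and the number of collagen transcripts per cell was not compared. COL3A1, another fibrillar collagen, was at -0.66 in AT and past 2-fold at -1.24 in BM and -1.26 in PB. Of the collagen and matrix list, 14 of 19 tested genes in AT, 17 of 20 in BM and 16 of 19 in PB were below 0, with 1, 4 and 1 of them 2-fold lower and none 2-fold higher. TMM scaling gave 1, 9 and 3 in place of 1, 4 and 1. In the PCNA and MCM5 cells the list's medians were -0.15, -0.12 and -0.11, and the small leucine-rich proteoglycans stood at -0.27, -0.39 and 0.11, with OGN at -0.33, -0.47 and -0.06.

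Among regulators of the cell cycle outside mitosis, CDKN3, a phosphatase that acts on CDK1, was higher by 4.0, 3.18 and 4.04. CDKN2C, the CDK4 and CDK6 inhibitor p18, was at 223, 271 and 221 CPM in members of AT, BM and PB, close to each other, while its reference level spanned 102, 36.7 and 14.8 CPM. Its differences therefore ranged from 1.13 in AT to 2.85 in BM and 3.82 in PB. CDKN1C, the inhibitor p57, was lower in BM at -2.0 and PB at -1.25 and at -0.52 in AT. CDKN1A, the inhibitor p21, was at -0.59, -0.86 and 0.09. CCND1, the G1 cyclin D1, differed by 2.0 in AT and 1.37 in PB and by 0.36 in BM. The reference cells of BM already held 274 CPM of it, against 25.1 CPM in AT and 141 CPM in PB, and members held 103 CPM in AT, 352 CPM in BM and 366 CPM in PB.

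The ribosomal protein and mitochondrially encoded lists stayed within 2-fold. None of the 54 tested ribosomal protein genes was called in any source, with medians of -0.23, -0.21 and -0.27. Values below 0, again as shares of UMIs and not as counts per cell, were found for 50, 49 and 47 of them, and under TMM for 51, 52 and 51. The mitochondrially encoded genes had medians of 0.19, 0.17 and 0.14 with none called, and under TMM 0.02, 0.05 and -0.06, so that their direction in PB turned with the scaling. Glycolysis genes had 0 of 15, 0 of 17 and 0 of 15 past 2-fold higher and 0, 2 and 1 lower, the lowest being ALDOC, an aldolase, at -0.79, -1.09 and -1.57. Among chaperones, HSP90AA1, the inducible HSP90, was at 783, 1209 and 863 CPM in members against 352, 338 and 306 CPM, and its partner HSPH1 differed by 1.0, 1.61 and 1.88. They were the 2 of 16 tested chaperones that were past 2-fold in all sources. In AT, however, both came within 2-fold under TMM, at 0.98 for HSP90AA1 and 0.84 for HSPH1. The AT ratio of HSPH1 was within 2-fold under 9 of 15 other processing settings. In members without PCNA or MCM5 UMIs HSP90AA1 was at 0.83 in PB and HSPH1 at 0.92 in BM, also within 2-fold. Immediate early genes had 0, 1 and 1 higher and 0, 3 and 1 lower, with KLF4 at -0.16, -1.38 and -1.15. B2M, the light chain of MHC class I, stood at -0.64, -0.99 and -0.74, the lowest of the MSC surface antigens in each source.

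**Figure D3:**
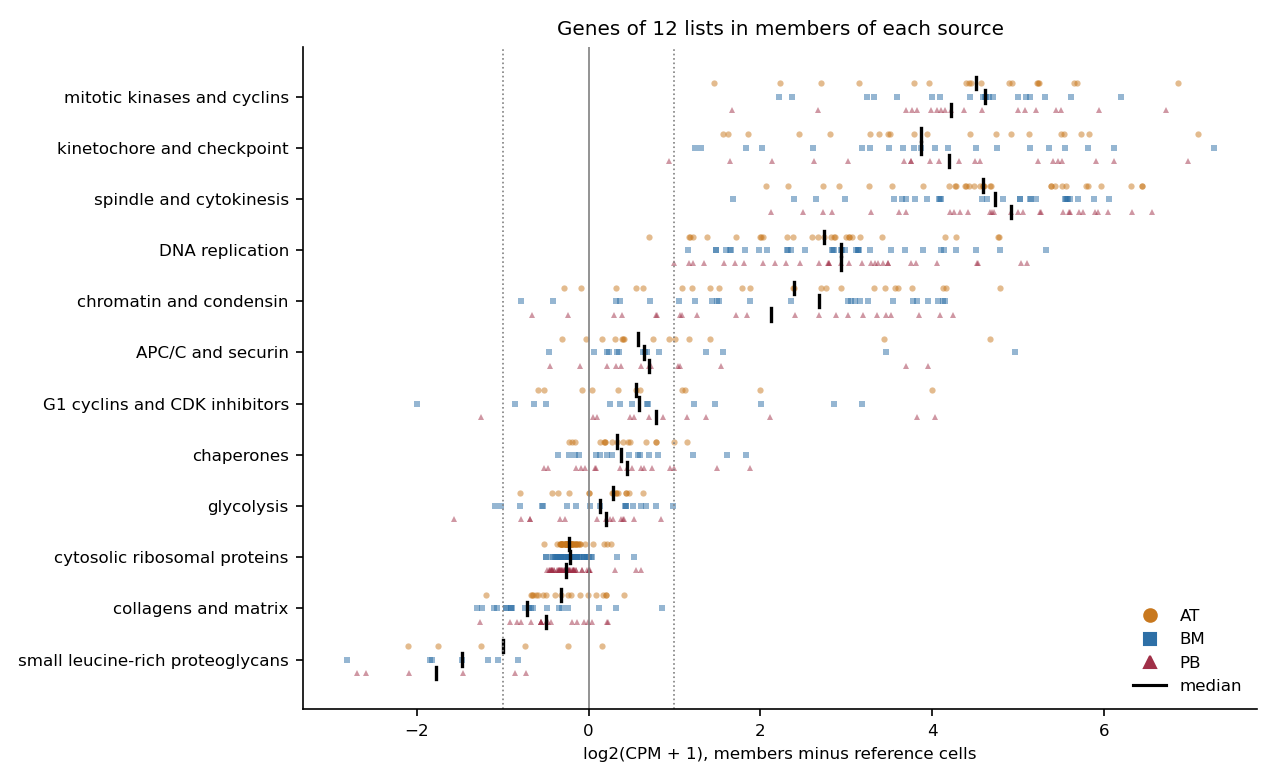
Difference of log2(CPM + 1) between members and reference cells for each tested gene of 12 lists in AT (circles), BM (squares) and PB (triangles); black bars are list medians and dotted lines mark 2-fold. Kinase, kinetochore and spindle genes center near 4 to 5 in each source, ribosomal protein genes just below 0, and the small leucine-rich proteoglycans between -1.0 and -1.78.

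Inside the members, cells with at least 3 CDC20 UMIs were set against those with none, because CDC20 accumulates toward mitosis. This split was chosen after the data were seen and uses a gene of the rule, so it is a description. The 2 sets held 133 and 81 cells in AT, 264 and 178 in BM, and 112 and 85 in PB. The cells with CDC20 were not deeper, with a median of 8007 UMIs against 9449 in AT, 9251.5 against 9805 in BM and 9831.5 against 11045 in PB. Of 2146 genes at 50 CPM or more, 15 were at least 2-fold higher with CDC20 in all sources and 0 were 2-fold lower in all.

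Among the 15, CCNB2, the second mitotic cyclin B, differed by 1.66 in AT, 1.76 in BM and 2.36 in PB. CDKN3 was at 1.57, 1.61 and 1.78, ASPM, a spindle pole protein, at 1.70, 1.61 and 1.53, and CENPA at 1.44, 1.95 and 1.75. TUBB4A, a beta-tubulin isotype, was at 1.24, 1.45 and 1.68, and the others were CKAP2, KNSTRN, REEP4, CDCA3, ARL6IP1, HMGB3, HMMR, NEK2, KIF23 and JPT1. A further view at a difference of 0.5 in every source gave 55 higher genes and 7 lower. Among the lower ones were CYR61 (-0.87, -1.16 and -1.07), IER3, ATAD2, HIST1H1D, GMNN and TCF19. CYR61 is a secreted matricellular protein, whereas GMNN, geminin, and ATAD2 belong to replicating cells. A PCNA or MCM5 UMI was seen in 63.9%, 90.5% and 79.5% of the members with CDC20 and in 85.2%, 96.1% and 88.2% of those without.

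**Figure D4:**
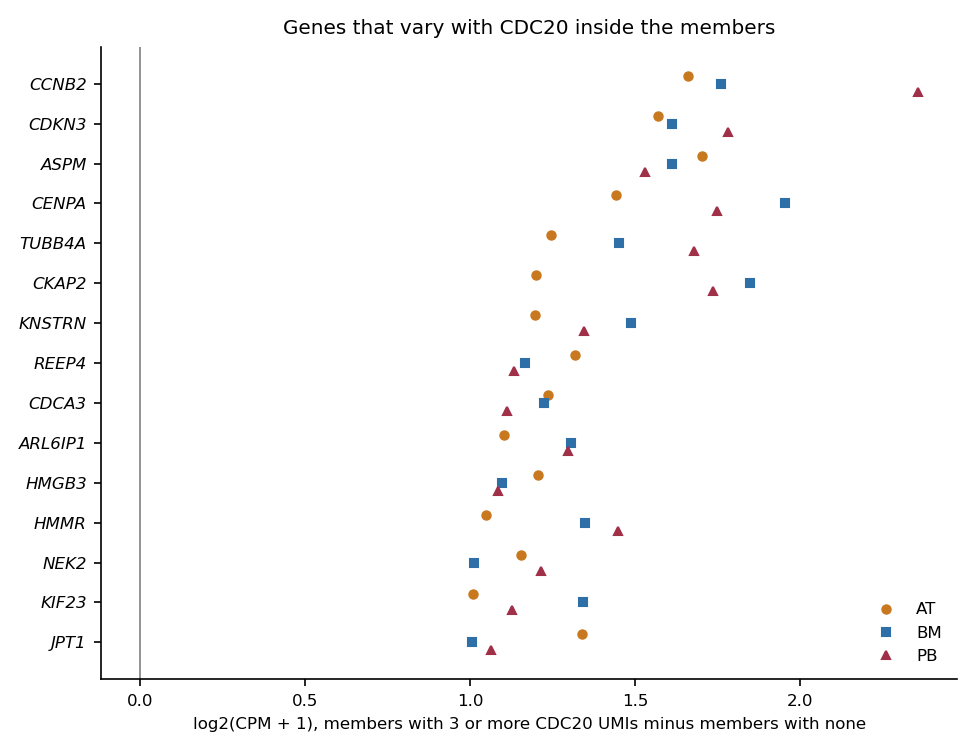
Difference of log2(CPM + 1) between members with 3 or more CDC20 UMIs and members with none, for the 15 genes at least 2-fold higher in AT (circles), BM (squares) and PB (triangles). CCNB2 ranges from 1.66 to 2.36.

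The sources were then set side by side. Over the 5954 genes tested in all, Pearson's r between the log2 differences of 2 sources was 0.873 for AT and BM, 0.896 for AT and PB and 0.907 for BM and PB, and Spearman's rho was 0.717, 0.729 and 0.805. For the 5028 genes that were past 2-fold in no source, r was 0.622, 0.630 and 0.725. These are descriptions across genes, which are not independent, and the points share the rule and the gap in RNA content between members and reference. The 314 shared genes were 78.1% of the higher calls of AT, 55.3% of BM and 62.9% of PB among genes tested in all sources. The 16 shared lower genes were 47.1% of the lower calls of AT, 8.99% of BM and 20% of PB. Higher calls had the same sign in both other sources in 97.0%, 97.0% and 96.0% of cases and lower calls in 91.2%, 83.1% and 96.3%.

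Of the 5954 genes tested in all sources, few were called in AT and within 0.5 of 0 in both others, with 5 higher and 2 lower. UACA, a cytoskeleton-associated protein, was at 47.8 CPM in AT members against 15.5 CPM (difference 1.57, counting bounds 1.17 to 1.96), and at 0.47 in BM and 0.17 in PB. PHGDH, the first enzyme of serine synthesis, was at 63.4 CPM against 28.0 CPM (1.15), with 0.09 in BM and 0.32 in PB. ERRFI1, an inhibitor of EGF receptor signaling, was at 1.11, -0.18 and -0.45, and EMP2 was at 1.07 in AT. THBS1, thrombospondin, was lower in AT, at 238 CPM in members and 548 CPM in the reference (-1.20), whereas BM held 417 and 335 CPM and PB 90.0 and 87.2 CPM. The other lower gene was PDLIM4, at -1.23. With a minimum of 3 rule UMIs both were within 2-fold in AT, THBS1 at -0.79 and PDLIM4 at -0.93, and TMM brought PHGDH to 0.98, ERRFI1 to 0.94 and EMP2 to 0.91. UACA stayed past 2-fold under all 15 other processing settings, whereas EMP2 lost its call under 6.

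BM had 18 genes higher and 30 lower in this sense, again of 5954. SHOX2, a limb-patterning homeobox factor, was at 25.3 CPM in BM members (21.6 to 29.5) against 4.87 CPM in the reference (3.81 to 6.15). Its level in AT was 51.1 and 46.4 CPM and in PB 39.6 and 46.6 CPM, so the low value was that of the BM reference. The 55 BM members without a PCNA or MCM5 UMI, an alternative added after the data were seen, held 0 SHOX2 UMIs, so that the difference turned to -2.55. A count of 3 UMIs in those cells is 8.02 CPM, above the reference level of SHOX2, so a direction was not detectable there. FILIP1L differed by 1.67 in BM and by -0.18 in AT and -0.16 in PB, and RSRC1, ELAC2 and MAPRE2 by 1.56, 1.21 and 1.19 in BM. On the lower side stood GJA1, the gap junction protein connexin 43, at -1.54, TGFB1, the growth factor, at -1.39, NSG1 at -1.36 and MMP19, a matrix protease, at -1.14. GJA1 was at 254 CPM in BM members and 740 CPM in the reference. Against all other kept cells ELAC2 was at 0.85, MAPRE2 at 0.96 and MMP19 at -0.98, within 2-fold.

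The BM members held a subset of cells that was rare in their reference. HMX2 and HMX3, homeobox factors, and IGFBP5, a binding protein of insulin-like growth factors, come from lists the study drew from these libraries, so they are no independent evidence. HMX2 was at 50.8 CPM in BM members (45.4 to 56.5) and 1.30 CPM in the reference (0.785 to 2.04), HMX3 at 21.9 and 1.17 CPM, and IGFBP5 at 51.8 and 1.99 CPM. A UMI of any of the 3 genes was found in 278 of 687 BM members, 40.5% (36.8 to 44.2), and in 39 of 2334 reference cells, 1.67% (1.19 to 2.28). At 2500 UMIs per cell the shares were 19.7% and 0.814%. The PCNA and MCM5 cells of BM lay between, at 5.67% (3.62 to 8.38). In PB such a UMI was seen in 2 of 308 members (0.649%) and 1 of 2816 reference cells (0.0355%), too few to compare. In AT, where IGFBP5 was common, the shares were 54.2% and 54.6%. Among all 584 kept BM cells with such a UMI, 47.6% were members and 36.6% were cells with 1 to 4 rule UMIs, of which 17.1% carried one.

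Members with these UMIs had a median of 12 rule UMIs against 11 in the other BM members, and 96.8% against 88.8% had a PCNA or MCM5 UMI. They also had more RNA, at a median of 10494.5 against 8761 UMIs. CCNA2 was at 277 CPM with and 228 CPM without these UMIs, and CENPF at 202 and 327 CPM. JAM2, an adhesion molecule of cell junctions, was at 35.7 CPM with and 398 CPM without, and GJA1 at 75.5 and 396 CPM. SHOX2 was at 47.5 and 7.71 CPM and FILIP1L at 166 and 47.9 CPM.

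Several BM differences were therefore recomputed without all BM cells that had such a UMI, an alternative added after the data were seen. SHOX2 then differed by 0.78, FILIP1L by 0.66, RSRC1 by 1.14, ELAC2 by 0.85, MAPRE2 by 0.78, GJA1 by -0.92, NSG1 by -0.81, MMP19 by -0.93 and TGFB1 by -1.33, which leaves RSRC1 and TGFB1 past 2-fold among these. In the BM members without PCNA or MCM5 UMIs TGFB1 was at -0.98, GJA1 at -0.57, NSG1 at -0.81, ELAC2 at 0.20 and MAPRE2 at 0.95, all within 2-fold. JAM2, lower in BM members at 238 against 537 CPM (-1.17), went to -0.44. The count of 2-fold lower genes in BM went from 299 to 165. ALPL, alkaline phosphatase, at 25 against 136 CPM in BM members and reference, kept -1.82 of its -2.40. MSX1, a homeobox factor of progenitor cells, was 1.61 with and 1.70 without those cells, and OGN and ASPN were at -1.99 and -2.17. GSN and LRMDA, which were 2-fold lower in all sources, were then within 2-fold in BM, at -0.99 and -0.72. The other genes listed as lowest in all sources kept their BM call.

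PB had 18 genes higher and 4 lower, of 5954, that were called there and within 0.5 of 0 in both other sources. ID3, which blocks the binding of bHLH factors to DNA, was at 740 CPM in PB members (710 to 770) and 238 CPM in the reference (231 to 244). The same gene stood at 416 and 433 CPM in AT and at 1034 and 941 CPM in BM. CNN1, calponin of contractile cells, was at 92.8 against 24.8 CPM in PB (1.86), at 0.11 in AT and 0.45 in BM. Of the contractile list, 0 of 10 tested genes in AT, 1 of 9 in BM and 2 of 9 in PB were 2-fold higher and none was 2-fold lower, with medians of -0.52, 0.02 and 0.26. Under TMM 2 genes of the list were 2-fold lower in AT, and the medians were -0.69, -0.11 and 0.05, so the sign turned in BM. CALD1, the actin-binding caldesmon, was the lowest of that list in PB, at -0.57. PHTF2, BIRC2 and NMNAT2 differed by 1.6, 1.36 and 1.45 in PB. The lower genes were ADA, adenosine deaminase, at -1.13, SEL1L, of the degradation pathway of the endoplasmic reticulum, at -1.16, ERC1 at -1.09 and DCAF6 at -1.01. Each of these 4 lay close to 2-fold, and ADA, SEL1L, ERC1 and DCAF6 were within it under 2, 3, 5 and 5 of the 15 other processing settings.

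ID1, ID2 and CXCL8, which the study tied to subsets of these libraries, were also past 2-fold in PB members. ID1 was at 1099 CPM (1063 to 1137) against 186 CPM (180 to 192), with 0.12 in AT and 0.80 in BM, and ID2 was at 1.45 with -0.98 in AT and -0.08 in BM. ACTG2, smooth muscle gamma-actin, was at 269 against 22.1 CPM in PB and 366 against 82.2 CPM in BM, differences of 3.55 and 2.14 beside 0.22 in AT. Without the BM cells with HMX2, HMX3 or IGFBP5 UMIs the BM difference of ACTG2 was 1.08. CGA, the shared alpha subunit of glycoprotein hormones, was higher in each source, by 1.31, 0.55 and 2.6. CXCL8, a neutrophil chemokine, was at 76.6 against 1.68 CPM in PB, but 76.9% of its 242 UMIs lay in 5 members and 16 members carried it, 5.19% against 0.533% of reference cells. In BM, where it was under the filter, 16 of 687 members (2.33%) held 70 UMIs of CXCL8 and 0.0857% of reference cells had one, and AT members held 1 UMI.

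An ACTG2 or CXCL8 UMI was found in 42.2% of PB members (36.6 to 47.9) and 9.69% of reference cells (8.63 to 10.8), and at 2500 UMIs per cell in 28.9% and 4.23%. The BM shares were 52.4% and 20.7%, and 34.4% and 10.8% at 2500 UMIs per cell. AT cells had one in 58.1% of members and 48.9% of the reference, and after thinning in 35.3% and 32.5%. Without the PB cells that had one, another alternative added after the data were seen, ID1 differed by 2.09, CNN1 by 1.6, CGA by 1.77, PHTF2 by 1.41, ID2 by 1.16 and ID3 by 1.03. BIRC2 and NMNAT2 were then within 2-fold, at 0.80 and 0.36, as was DCAF6 at -0.67, and CCND1 stood at 0.85. Some genes listed as lowest in all sources also came within 2-fold in PB. These were GSN at -0.76, SERPING1 at -0.96, S100A1 at -0.97 and SDC2 at -0.99. The others of that listing kept their PB call, with OGN at -2.36 and ASPN at -2.24. The count of genes 2-fold lower in PB went from 118 to 74.

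CCL2, a chemokine that attracts monocytes, was above its reference in AT and PB members and below it in BM members. It was at 26.2 CPM in AT members and 13.4 CPM in the reference, at 921 and 491 CPM in PB, and at 232 and 667 CPM in BM, which gives 0.92, 0.90 and -1.52. In AT the members' level of CCL2 rests on 79 UMIs in 26 cells, with 58.2% of them in 5 cells. Without the BM cells with HMX2, HMX3 or IGFBP5 the BM value of CCL2 was -1.13. Leaving out ACTG2 or CXCL8 cells, the PB value of CCL2 was 0.38.

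**Figure D5:**
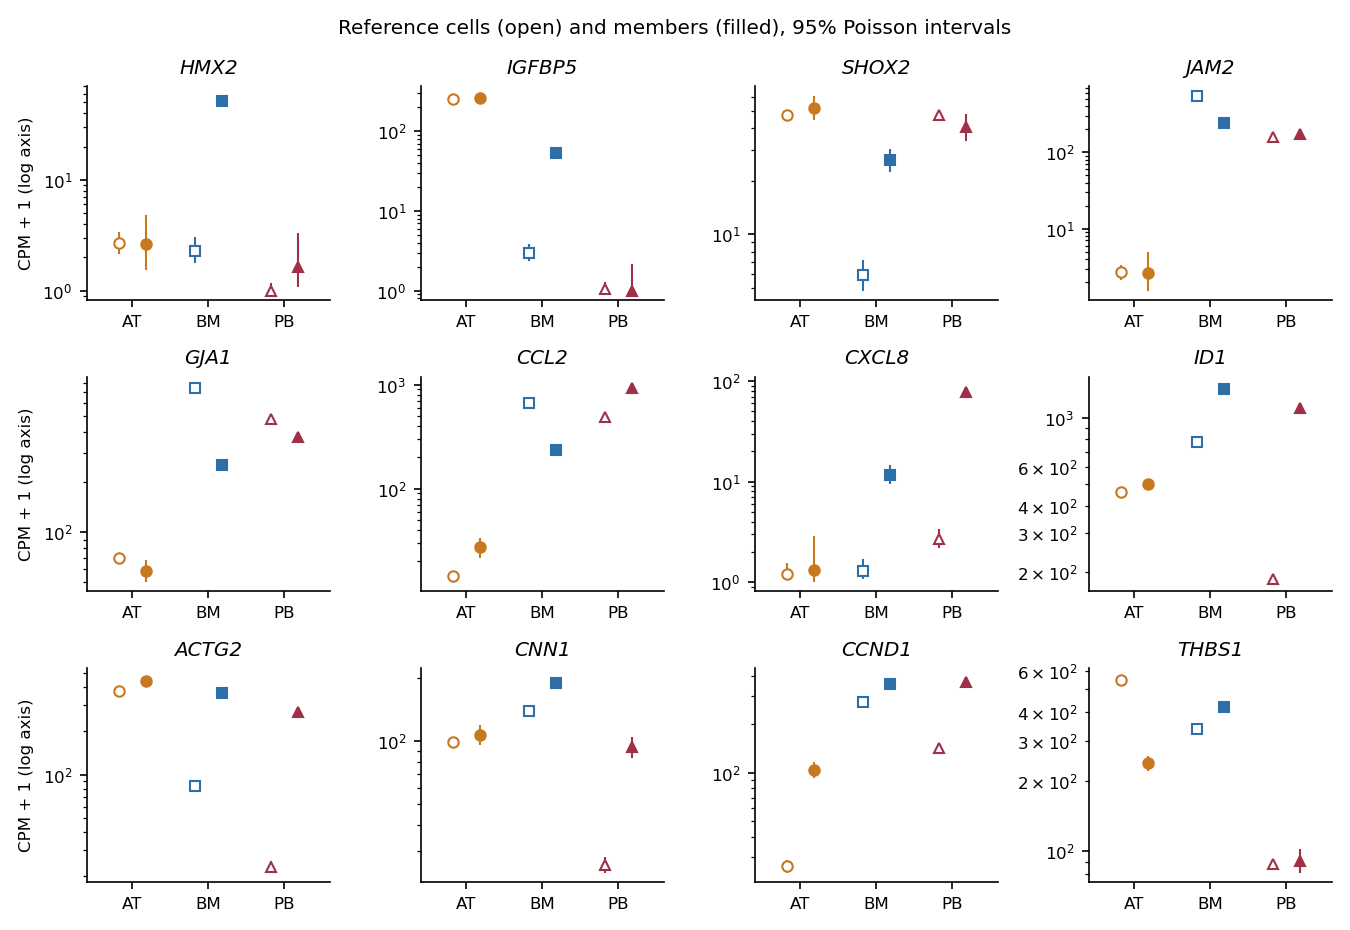
Level as CPM + 1 (log axis, a separate range for each gene) of 12 genes in reference cells (open symbols) and members (filled symbols) of AT (circles), BM (squares) and PB (triangles), with 95% Poisson intervals that cover counting error only. HMX2 is apart from its reference in BM, ID1, ACTG2 and CNN1 have their widest gap in PB, and CCL2 is higher in AT and PB members and lower in BM members.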

How the data were processed

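The authors deposited tables of unnormalized UMI counts, with 1 table of genes by barcodes for each source. The libraries were made with 10x Genomics 3′ chemistry (version 2), and reads were mapped to EquCab3.0 with Cell Ranger and counted per gene with ESAT. The version of ESAT is not given in the sources used here. Cells were kept at 2500 to 15000 UMIs when the mitochondrial share was no more than 3%, and held 39980656 (AT), 40239295 (BM) and 41622445 (PB) UMIs. Doublets were not removed, and Scrublet (Scanpy 1.11.5) served an alternative.

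Members, gene lists and alternatives were chosen with earlier results of these data known. UMIs were summed per group, scaled to CPM and compared as log2(CPM + 1) for genes with a mean of at least 10 CPM. The 4 rule genes, PCNA and MCM5 were left out. Poisson and Clopper-Pearson intervals are exact (SciPy 1.17.1). A count of 3 UMIs corresponds to 0.995, 0.460 and 0.950 CPM in members of AT, BM and PB. No test was run, since each source has 1 library and the rule used the same cells, and edgeR 4.0.16 gave TMM factors only. The calculation was tested on simulated counts.

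Genes named: the 15 highest and 15 lowest by the least extreme source, up to 5 per source and direction past 2-fold there and within 0.5 of 0 elsewhere, and list members (all where 8 or fewer were tested, otherwise the 2 to 4 highest and lowest by median). Genes named outside this rule, after their values were seen, are those of the CDC20 split, MCM3, CHAF1B, UNG, CDC26, CDC27, H2AFZ, HMGB2, PLK1, CKS2, COL1A1, ID1, ID2, CCL2 and CCL7. A motif search in promoters was planned and not run, as the reference tables used here hold no sequence. Some genes that meet the rule are not reported here.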

Additional observations from a re-analysis of the deposited data

Results flagged for a closer look

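Barcodes above the upper limit of 15000 UMIs entered the comparisons only in the setting without that limit, and 45 of 161 in AT, 87 of 183 in BM and 57 of 259 in PB held 5 or more UMIs of the rule genes. These are 28.0% (95% Clopper-Pearson interval 21.2 to 35.6), 47.5% (40.1 to 55.0) and 22.0% (17.1 to 27.6), above the shares in kept cells. They have more UMIs in which to find such transcripts, and barcodes that hold 2 cells were not separated from single cells.

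CCL7, a monocyte chemokine, was the 1 gene tested in all sources that was 2-fold higher in members of 1 source and 2-fold lower in another. Its log2 difference was 2.11 in AT (18.2 against 3.45 CPM), -1.43 in BM (13.8 against 39.0 CPM) and 0.35 in PB (107 against 84.0 CPM). The AT value rests on 55 UMIs in members, and the difference between sources was not tested.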

How the results depend on the processing

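No test was run, paired or unpaired, as the rule chose members and reference by transcripts of these same cells. Each of the 3 libraries holds both groups, which were compared within it, and with 1 library per source no replicate could be left out. The count of 2-fold higher genes in AT, BM, PB and all sources moved by more than 1.5 times with the filter only, to 141, 239, 194 and 106 at 50 CPM and to 828, 1122, 996 and 529 without a filter, from 440, 679, 560 and 314. The count of lower genes, 60, 299, 118 and 16, became 18, 111, 45 and 2 at 50 CPM and 294, 625, 390 and 42 without a filter. With TMM it was 101 in AT, 251 in PB and 29 in all, with a pseudocount of 5 CPM 38, 77 and 10, and with cells thinned to 2500 UMIs 99 in AT and 203 in PB. It was 35 in AT with a minimum of 3 rule UMIs and 198 in BM against all other kept cells. Alternatives chosen after seeing the data gave 165 in BM without cells with HMX2, HMX3 or IGFBP5, 74 in PB without cells with ACTG2 or CXCL8, and 236 in PB and 4 in all for members without PCNA or MCM5 UMIs. Thinning left 133, 234 and 90 members at a minimum of 5 UMIs. The direction reversed for DES in BM (-0.44, from 2.07) without the HMX2, HMX3 or IGFBP5 cells. DES was under the filter in BM, and the members left held 3 UMIs of it. SHOX2 in BM (-2.55) and CDC16 in PB (-0.50) reversed in members without PCNA or MCM5 UMIs, which held 0 UMIs of SHOX2 and 3 of CDC16. The causes were not tested, apart from the fewer or more genes and cells that a filter or thinning admits. Of 471 ratios of named genes past 2-fold, between 401 and 471 stayed so under each setting applied to all sources. The settings of 50 CPM and of no filter change which genes are tested and not a ratio, so 471 was fixed there in advance. Without the mitochondrial limit 471 stayed as well. Counts of settings given above for single genes likewise refer to ratios, whether or not the gene passed the filter of a setting. Genes near 10 CPM rest on few UMIs, and the error between cultures is unknown.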
